A study of Saccharomyces cerevisiae with 8 samples.

Results

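In hybrid Sce2965, 58 of the 6528 features on a yeast array stood on one side of the parental mix on all 4 arrays, while hybrid Sce2950 gave mixed signs for them. A feature is a pair of successive spots, odd then even, that carry the same probe, and its value is the mean of the log2 ratios of hybrid over mix at both spots. Members were chosen on the deposited table of log2 ratios. They had values on all 8 arrays, the same sign on all 4 Sce2965 arrays, a mean over those arrays of at least 0.4 in size, and mixed signs over the 4 Sce2950 arrays. Of the 58, 37 were above the mix in Sce2965 and 21 were below it. Because these ratios chose the members, they are given as a description with no test.

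The series asked how gene expression in a hybrid departs when genomes that adapted to different environments meet in 1 cell. Each 2-colour array carried RNA of a Saccharomyces cerevisiae hybrid in one dye and a mix of parental RNA in the other. Hybrid Sce2965 was hybridised against a mix of sce2713 and sce2902 on 4 arrays, and hybrid Sce2950 against a mix of sce2709 and sce2898 on 4 arrays. For each hybrid, the hybrid RNA carried Cy5 on 2 arrays and Cy3 on the other 2. The parental lines were adapted to different environments, and the labels do not say which line came from which one. No unadapted ancestor was hybridised, so a ratio compares hybrid with adapted parents only. Cultures started from a single colony and were grown to early log phase in diluted YPD, a rich glucose medium, per the label of 1 array. The series' text calls the arrays of a comparison independent replicates, but the culture behind each array is not named, so part of the spread between arrays may be technical.

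As background, a mix of parental RNA stands in for the level a hybrid would have if each parental genome contributed its own expression unaltered. A gene above or below the mix has a hybrid level that is not the average of the parental levels. Such departures can arise when regulators from one parental genome meet the target genes of the other, which is one form of epistasis. Divergent adaptation is the process by which populations in different environments fix different alleles, and the study's title places its hybrids in that setting.

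The files do not pair spots with genes, since the name field was filled for 0 spots. Members are therefore given by spot number, and no gene, pathway or sequence is attached to them. The 20 gene lists prepared for the report, among them salt and glucose response lists, could not be matched. Any control spots are among the features, since nothing marks them.

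On the 8 arrays the median spot intensity lay between 159 and 455 scanner units in the hybrid channel and between 116 and 313 in the mix channel. The slide numbers in the titles fall into 3 series. Replicates 1 and 2 of each hybrid lay on an earlier series of their own, and replicates 3 and 4 of both hybrids shared a later series. The median local background was between 56.3 and 65.9 on the later slides and at most 2.6 on the earlier ones. Over all features, the later arrays of 1 hybrid correlated negatively between the dye orientations, at -0.402 between Sce2965 replicates 3 and 4 and at -0.575 between Sce2950 replicates 3 and 4. Across hybrids, later arrays of the same orientation correlated at 0.627 with the hybrid in Cy5 and at 0.588 with the hybrid in Cy3. These correlations are over features of pairs of arrays and describe the slides.

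The sign and size conditions on Sce2965 together kept few features. The sign was the same on all 4 Sce2965 arrays for 857 features, which is 13.1% of all. Of those, 96 had a mean of at least 0.4 in size, with 52 above the mix and 44 below it. Sce2950 had mixed signs for 58 of the 96, which are the members. The other 38 had the same sign on all 4 Sce2950 arrays as well, 15 of them in the direction of Sce2965 and 23 in the opposite direction. Mixed signs in Sce2950 were found for 60.4% of the 96 features and for 88.7% of all features. The same rule with the hybrids exchanged kept 40 features, 28 above and 12 below.

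Members above the mix had means in Sce2965 between 0.40 and 1.11, with a median of 0.52, which is 1.43-fold. In Sce2950 the means of the same 37 features lay between -0.30 and 0.24, with a median of -0.02. Members below the mix had means in Sce2965 between -0.88 and -0.41, with a median of -0.53, which is 1.44-fold below the mix. In Sce2950 those 21 features had means between -0.27 and 0.23, with a median of -0.04. The set was therefore made of modest departures. The mean was under 0.6 in size for 23 of the 37 above and 16 of the 21 below, and it reached 0.8 for 6 above and 2 below. Only 3 members, all above, reached a mean of 1.

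**Figure D1:**
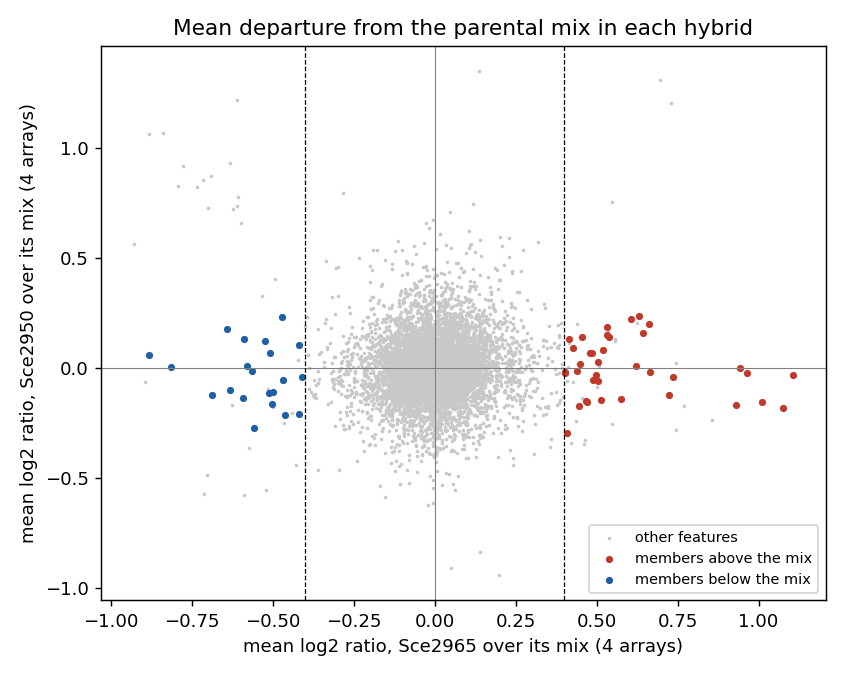
Mean log2 ratio of each feature in Sce2965 (horizontal axis) and in Sce2950 (vertical axis), each over 4 arrays, for members above the mix in red, members below in blue and all other features in grey. The dashed lines mark the size threshold of 0.4, and the members' Sce2950 means lie between -0.30 and 0.24.

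The label of a departure in Sce2965 alone is wider than what the rule measures. Mixed signs do not show that Sce2950 is at the level of its mix. The Sce2950 mean was under 0.2 in size for 51 of the 58 members, and its sign was that of Sce2965 for 29 of them. Of the 58, 34 had 3 of the 4 Sce2950 arrays on one side of the mix, while 24 were split evenly. In the deposited table, every Sce2965 array was above every Sce2950 array for 13 of the 37 members above, and every Sce2965 array was below every Sce2950 array for 10 of the 21 below. The same separation was found for 1.73% and 2.01% of all features in those directions. The rule used both sets of arrays, so nothing is read from these shares.

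The largest mean above the mix belonged to spots 35 and 36. Their log2 ratios on Sce2965 replicates 1 to 4 were 0.88, 0.21, 1.15 and 2.19, against 0.50, -0.49, -0.20 and 0.06 on Sce2950 replicates 1 to 4. The mean was 1.11 ± 0.823 in Sce2965 and -0.03 ± 0.421 in Sce2950 (SD, n = 4 each). Replicate 4 was far higher than replicate 2 within Sce2965, and the hybrids overlapped, since Sce2950 replicate 1 exceeded Sce2965 replicate 2. The intensities below are means of both spots with no background taken off. On Sce2965 replicates 1 to 4, the hybrid channel had 403.4, 617.9, 887.2 and 2341.5 units, and the mix channel had 361.1, 227.5, 694.5 and 416.1. On Sce2950 replicates 1 to 4, the hybrid channel had 280.4, 129.2, 326.0 and 567.1 units, and the mix channel had 195.1, 104.1, 703.5 and 352.2. The hybrid channel was the brighter one on all 4 Sce2965 arrays, before any normalization, and also on Sce2950 replicates 1, 2 and 4. Raw channels carry the imbalance of the whole array. On Sce2965 replicate 2, the median spot had 455 units in the hybrid channel and 214 in the mix channel. The same arrays chose the feature, so its raw channels are no independent support.

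Spots 255 and 256 had nearly the same mean with less spread. Their log2 ratios on Sce2965 replicates 1 to 4 were 0.97, 1.33, 1.06 and 0.93, against 0.01, -0.51, -0.15 and -0.07 on Sce2950. The mean was 1.07 ± 0.178 in Sce2965, or 2.11-fold, and -0.18 ± 0.228 in Sce2950 (SD, n = 4 each). All Sce2965 arrays were near or above 1 and the hybrids did not overlap. The hybrid channel of Sce2965 had 2873.9, 3448.4, 3950.0 and 5392.5 units, beside 1926.0, 1469.1, 3081.1 and 2050.5 in the mix channel. The hybrid channel of Sce2950 had 25851.6, 8868.4, 2568.3 and 3747.7 units, beside 16390.8, 14206.0, 4419.4 and 2433.0 in the mix channel. In Sce2950 the feature was far brighter in both channels on replicates 1 and 2 than on replicates 3 and 4. Those pairs of arrays lay on different slide series, so slide and RNA level cannot be told apart there.

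The lowest mean belonged to spots 10801 and 10802. Their log2 ratios on Sce2965 replicates 1 to 4 were -1.07, -0.68, -0.51 and -1.27, against 0.14, 0.02, 0.13 and -0.05 on Sce2950. The mean was -0.88 ± 0.348 in Sce2965 and 0.06 ± 0.0921 in Sce2950 (SD, n = 4 each). The hybrids did not overlap, and the Sce2950 arrays stayed close to the mix. On Sce2965 the hybrid channel had 290.3, 1457.6, 830.7 and 983.3 units, and the mix channel had 719.3, 1962.0, 1560.0 and 1845.8, so the hybrid was the dimmer channel on each array. On Sce2950 the hybrid channel had 3867.5, 3567.4, 1050.9 and 1326.3 units, and the mix channel had 3003.5, 3845.5, 1491.5 and 962.5, with no side brighter throughout.

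Spots 11753 and 11754 followed, with log2 ratios of -0.49, -0.79, -1.09 and -0.88 on Sce2965 replicates 1 to 4, against -0.34, 0.24, -0.17 and 0.30 on Sce2950. The mean was -0.81 ± 0.252 in Sce2965 and 0.01 ± 0.311 in Sce2950 (SD, n = 4 each). Every Sce2965 array was lower than every Sce2950 array. The Sce2965 hybrid channel had 666.1, 1947.7, 1444.7 and 1948.2 units, beside 1059.1, 3115.8, 3204.4 and 2930.4 in the mix channel. The Sce2950 hybrid channel had 242.9, 378.6, 1634.3 and 3054.5 units, beside 395.1, 167.7, 2559.5 and 1869.8 in the mix channel. As with the lowest member, the mix was brighter than the hybrid on all 4 Sce2965 arrays, before any normalization. The median spot was also brighter in the mix on Sce2965 replicates 1 (159 in the hybrid, 288 in the mix) and 3 (217 and 297). It was brighter in the hybrid on replicates 2 (455 and 214) and 4 (328 and 248). In Sce2950 the mix was brighter on replicates 1 and 3 only.

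The members whose Sce2965 arrays lay closest together were of moderate size. Above the mix, the tightest had 0.41, 0.47, 0.40 and 0.33 on Sce2965 replicates 1 to 4 (SD 0.0583), against -0.51, 0.38, -0.00 and 0.07 on Sce2950. Its Sce2965 mean of 0.4009 was also the smallest among members above, and recomputed from the scanner intensities it was 0.35. The next had 0.39, 0.48, 0.45 and 0.62 on Sce2965 (SD 0.0978), against 0.55, -0.17, 0.06 and -0.17 on Sce2950. In both, a Sce2950 array reached or nearly reached the Sce2965 values. Below the mix, the tightest had -0.52, -0.47, -0.70 and -0.67 on Sce2965 (SD 0.111), against 0.06, 0.36, -0.12 and 0.24 on Sce2950. The next had -0.30, -0.67, -0.55 and -0.52 on Sce2965 (SD 0.156), against -0.10, -0.12, -0.24 and 0.01 on Sce2950. For both of these every Sce2965 array was lower than every Sce2950 array.

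Members varied more between Sce2965 arrays than features did in general. The SD over the 4 Sce2965 arrays had a median of 0.277 for members above and 0.309 for members below, beside 0.196 over all features. The rule used the signs and mean of these same 4 values, so nothing is read from this difference. Over the Sce2950 arrays the median SD was 0.247 for the members and 0.246 for all features. The SD exceeded the size of the mean for 3 members. A mean of at least 0.4 in size remained for every choice of 3 Sce2965 arrays in 28 of the 58 members, 18 above and 10 below. All 4 values reached 0.4 in size for 10 members, and the smallest of the 4 was under 0.1 in size for 8.

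The size threshold cut through a continuous range of values. Just inside it, members above had means of 0.4009 and 0.4037 in Sce2965, and members below had means of -0.4097 and -0.4185. Just outside it, features that met both sign conditions had means of 0.3935 and 0.3837 above the mix and of -0.3899 and -0.3895 below it. In all, 674 features met both sign conditions, and the members are 8.61% of them. With a threshold of 0.3 there would be 101 members, and with 0.6 there would be 19.

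Array by array, the members' median departure in the deposited table was largest on Sce2965 replicate 3 above the mix and on Sce2965 replicates 3 and 4 below it. For members above, the medians on Sce2965 replicates 1 to 4 were 0.41, 0.51, 0.76 and 0.43, and on Sce2950 replicates 1 to 4 they were 0.03, -0.13, 0.12 and -0.08. For members below, they were -0.43, -0.36, -0.64 and -0.67 on Sce2965, and -0.10, 0.01, -0.07 and 0.06 on Sce2950. On each Sce2965 array the median was further from 0 than on any Sce2950 array. The rule asks for 1 sign and a large mean in Sce2965 and for mixed signs in Sce2950, so nothing is read from this. Averaged within slide series, members below had a median of -0.67 on the later Sce2965 slides and -0.38 on the earlier ones, and 18 of the 21 were lower on the later slides. Members above had medians of 0.58 on the later and 0.48 on the earlier slides, and 26 of the 37 were higher on the later ones. The order differed in part after recomputation, and the step behind the change was not tested. In ratios recomputed from the scanner intensities, the medians on Sce2965 replicates 1 to 4 were 0.59, 0.68, 0.70 and 0.46 for members above, and -0.43, -0.64, -0.62 and -0.67 for members below. Members above then had medians of 0.59 on the later and 0.63 on the earlier Sce2965 slides, and 15 of the 37 were larger on the later ones. Members below had -0.64 on the later and -0.59 on the earlier slides, with 12 of the 21 larger in size on the later ones. In the deposited table, a size of at least 0.4 was reached in both series by 25 of the 37 above and 7 of the 21 below. The earlier slides differ between hybrids, so slide series and hybrid cannot be told apart there.

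**Figure D2:**
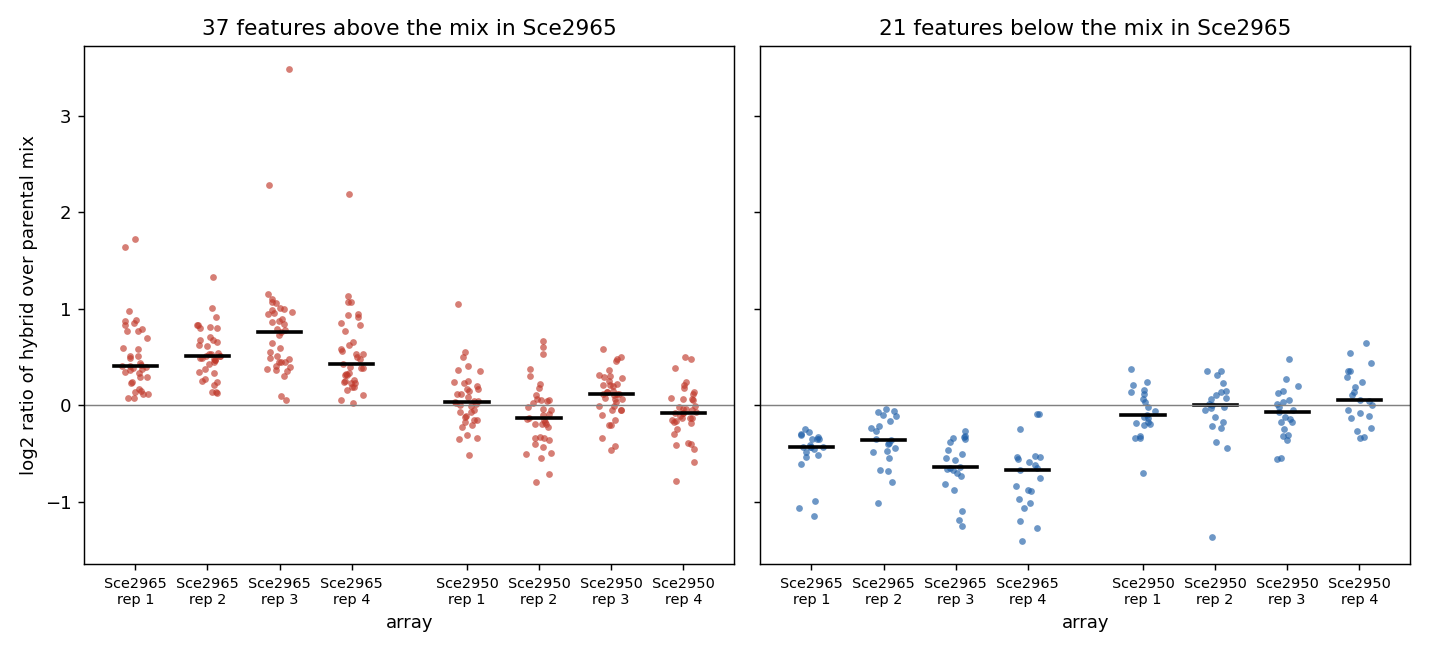
Log2 ratio of hybrid over mix (vertical axis) on each of the 4 Sce2965 arrays and the 4 Sce2950 arrays, with 1 point per member and a bar at the median, for the 37 members above the mix on the left and the 21 below on the right. The Sce2965 medians lie between 0.41 and 0.76 above the mix and between -0.67 and -0.36 below it, and 1 point on Sce2965 replicate 3 stands at 3.48.

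In Sce2965, ratios tended to be higher with the hybrid in Cy5 for members in both directions, and in Sce2950 for members above the mix. The rule used the same ratios, so the counts are a description with no test. With the hybrid in Cy5, members above had a median of 0.65 in Sce2965 and 0.12 in Sce2950. With the hybrid in Cy3, the medians were 0.39 in Sce2965 and -0.12 in Sce2950. For 25 of the 37 members above, the Sce2965 value was higher in the Cy5 orientation, and for 27 of the 37 the Sce2950 value was. Of the 21 members below, 14 were higher in the Cy5 orientation in Sce2965 and 8 in Sce2950. Over all features, 48.3% were higher with the hybrid in Cy5 in Sce2965 and 51.3% in Sce2950. Members below had medians of -0.50 in Sce2965 and -0.03 in Sce2950 with the hybrid in Cy5, and of -0.59 in Sce2965 and -0.02 in Sce2950 with the hybrid in Cy3.

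The mixed signs that the rule asks of Sce2950 lay mostly between orientations on the later slides. Replicates 3 and 4 of Sce2950 had opposite signs for 50 of the 58 members, or 86.2%. The rule itself asks for mixed signs, and among all features with mixed signs in Sce2950 the share was 80.5%, beside 71.5% of all features. On the earlier slides, replicates 1 and 2 of Sce2950 had opposite signs for 51.7% of the members, beside 56.0% of the features with mixed signs and 49.7% of all features. No test of these shares was made, and nothing is read from their difference.

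**Figure D3:**
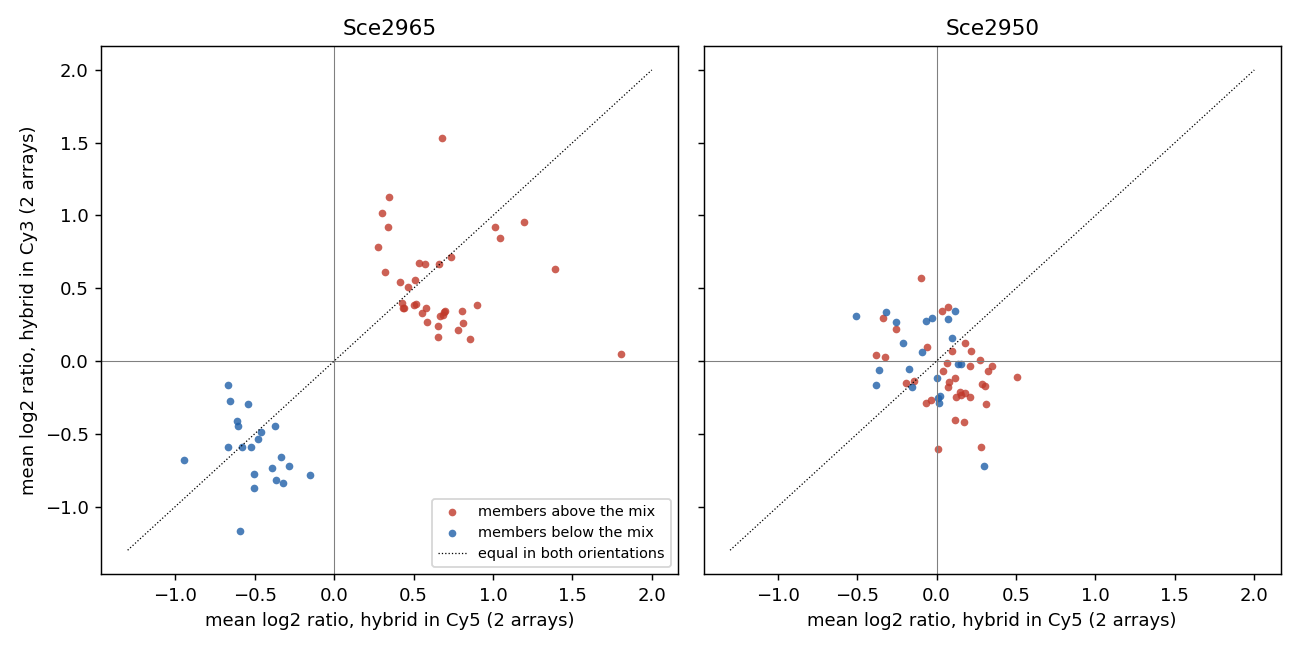
Mean log2 ratio of each member over the 2 arrays with the hybrid in Cy5 (horizontal axis) and over the 2 arrays with the hybrid in Cy3 (vertical axis), for Sce2965 on the left and Sce2950 on the right, with a dotted line at equal values. Members above the mix in Sce2965 are red, with medians of 0.65 in Cy5 and 0.39 in Cy3 for Sce2965 and of 0.12 and -0.12 for Sce2950, and members below are blue.

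Members were bright spots. Brightness, the mean log2 intensity over the 8 arrays and both channels, had a median of 9.56 for the members and 7.64 for all features. It depends on the probe as well as on the RNA, so it is no level of expression. The median member was at percentile 90.1 of all features, and 44 of the 58, or 75.9%, were above the 75th percentile. Both directions shared this, with 29 of the 37 above and 15 of the 21 below beyond that percentile. Of the 58 members, 4 were below the median brightness.

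Brightness was also high in features that met other versions of the rule. The 616 features that met both sign conditions but fell short in size had a median percentile of 68.7. Of the 38 features past the Sce2965 conditions that had the same sign on all Sce2950 arrays too, 35 were above the 75th percentile. The 40 features kept by the rule with the hybrids exchanged had a median percentile of 71.9, and 16 of them, or 40.0%, were above the 75th percentile. No test of these differences was made, since ratios and brightness come from the same spots.

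**Figure D4:**
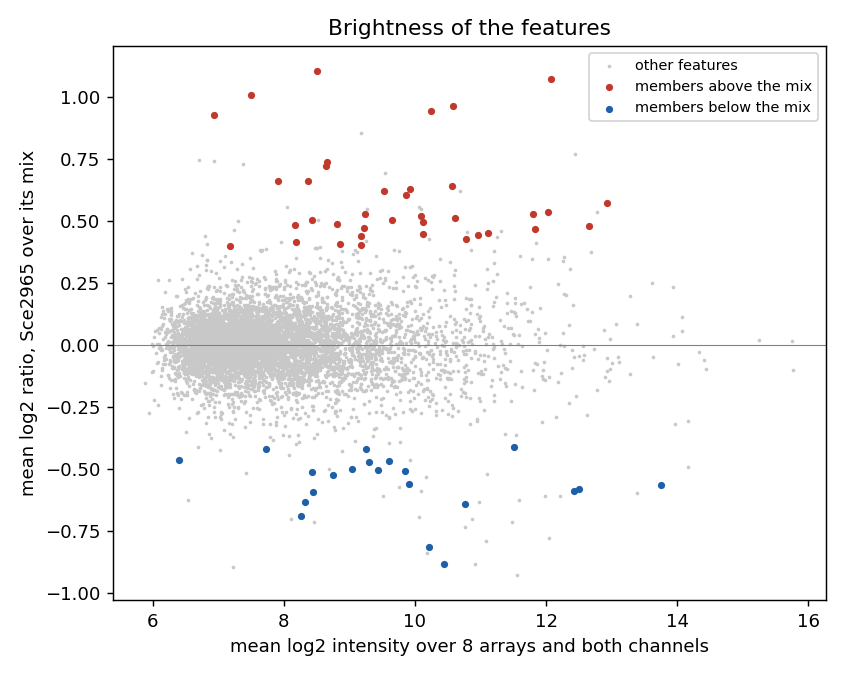
Mean log2 ratio in Sce2965 (vertical axis) against brightness, the mean log2 intensity over 8 arrays and both channels (horizontal axis), for members above the mix in red, members below in blue and all other features in grey. The members' median brightness is 9.56, against 7.64 for all features, and 4 members lie below the median brightness.

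The members were spread over the slide. They lay in 35 of the 48 print blocks, with at most 4 in a block, and 1 pair of members was printed side by side. Both spots of a feature, taken singly, had the same sign on all 4 Sce2965 arrays for 52 of the 58 members. In the other 6, at least 1 of the spots changed sign between Sce2965 arrays.

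For 30 of the 58 members, the mean fell under 0.4 in size when some Sce2965 array was left out, and 2 members rested on a single marked spot. Among the features singled out here after their values were seen, spots 1133 and 1134 had log2 ratios of 0.07, 0.14, 3.48 and 0.03 on Sce2965 replicates 1 to 4. On replicate 3 the scanner software had marked spot 1134 to be ignored. That spot had 18360 units in the hybrid channel and 335 in the mix channel, while spot 1133 had 170 in the hybrid channel and 208 in the mix channel. With the marked spot left out, the deposited value on replicate 3 was 0.36 and the mean in Sce2965 was 0.15. Recomputed from the scanner intensities as well, the mean was -0.05. One other member, at spots 4705 and 4706, also held a marked spot on replicate 3, and its Sce2965 ratios were -0.45, -0.06, -1.25 and -0.09. With that spot left out, its value on replicate 3 was 0.22 and its mean was -0.09. Leaving out the marked spots removed both from the set, which left 56 members.

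Ratios were also recomputed from the scanner intensities with normexp background correction and global loess, which fits the log ratio as a curve of brightness on each array. The mean in Sce2965 kept its sign for 57 of the 58 members, and it was at least 0.4 in size for 51. The sign was the same on all 4 Sce2965 arrays for 45 members, and Sce2950 stayed mixed for 55. The whole rule was met there by 42 members, 26 above and 16 below. In all, 106 features met the rule on those ratios, so the members that met it are 72.4% of the members and 39.6% of the 106. With loess fitted within each print block, 75 features met the rule, among them 50 of the members.

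**Figure D5:**
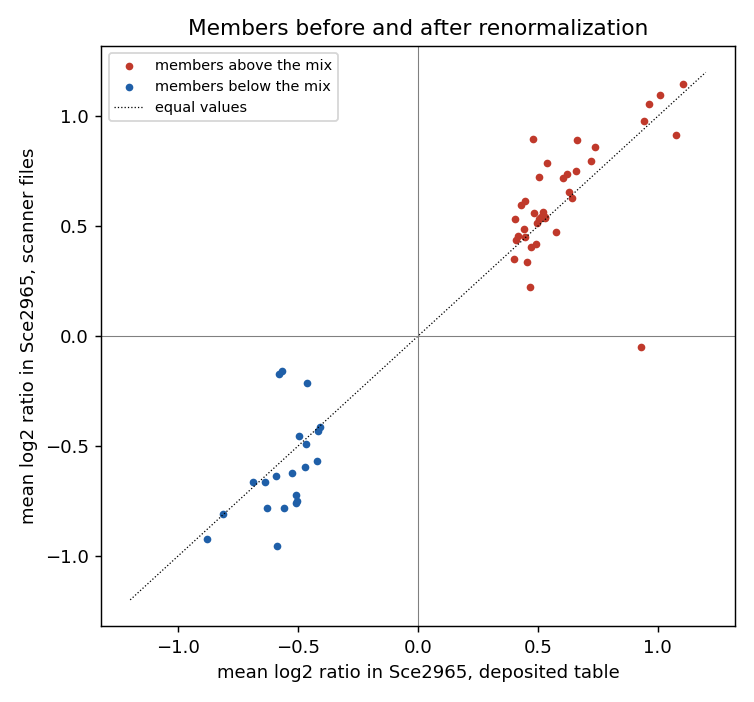
Mean log2 ratio over the 4 Sce2965 arrays in the deposited table (horizontal axis) and recomputed from scanner intensities with global loess (vertical axis) for the 58 members, with a dotted line at equal values. The member recomputed at -0.05 is the feature of spots 1133 and 1134, the other 57 kept their sign, and 51 were at least 0.4 in size.

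A limma model of the recomputed ratios over all 6526 features with enough arrays called 11 members in Sce2965 against its mix at an adjusted p of 0.05, beside 0.429% of all features. Of these, 8 were above the mix, beside 0.199% of all features, and 3 were below it, beside 0.230%. An unadjusted p under 0.05 was found for 51 members, beside 5.55% of all features. The rule used the same arrays, so nothing is read from these counts. They also turned on single arrays. Without Sce2965 replicate 3 or without replicate 4, limma called 0 features of all tested, members included, while 49 and 45 members had an unadjusted p under 0.05. Without Sce2965 replicate 1 it called 3 members, beside 0.0768% of all features. Without Sce2950 replicates 1, 3 and 4 it called 7, 6 and 5 members, beside 0.307%, 0.307% and 0.246% of all features. The calls thus fell over the whole array and not in the members alone.

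The difference between the hybrids bears on whether a departure is found in Sce2965 alone. At the same threshold, limma called a difference of Sce2965 minus Sce2950 for 4 members, beside 0.398% of all features. Spots 6163 and 6164 and spots 8533 and 8534 were higher in Sce2965 (0.0766% of all features). Spots 6919 and 6920 and spots 10801 and 10802 were lower in Sce2965 (0.322% of all features). All but the last pair are named after their values were seen. The member at spots 6919 and 6920 is the tightest one below the mix, described above without its spot numbers. For the other 54 members a difference between the hybrids was not called, which does not show that the hybrids were alike. With limma, a difference was called for 0 members when Sce2965 replicate 3, Sce2965 replicate 4, Sce2950 replicate 1 or Sce2950 replicate 4 was left out, with 31 to 35 members at an unadjusted p under 0.05. The shares of all features called there were 0.230%, 0.169%, 0.154% and 0.169%. The count was 2 without Sce2965 replicate 1 (0.277% of all features) and 1 without Sce2950 replicate 2 or 3 (0.261% and 0.245%). Other settings raised it, to 10 members with loess within print blocks (0.490% of all features), 21 with the replicate number as a block (0.981%) and 35 on the later slides alone (1.92%). The fits with the replicate block and on the later slides alone left fewer residual degrees of freedom than the main fit. The later slides hold only replicates 3 and 4 of each hybrid.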

How the data were processed

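RNA of 2 hybrids and their parental mixes was measured on 8 spotted arrays. Scanner files hold the intensity and local background of 13056 spots per channel, not normalized, per the file headers. Channel 2 held the hybrid and channel 1 the mix, per the labels. The table deposited by the authors gives the log2 ratio of each hybrid to its mix per spot. How it was normalized is not given in the sources. Its scale, direction and centring were read from a comparison with ratios recomputed by background subtraction and print-tip loess, with correlations of 0.962 to 0.997 and slopes of 0.922 to 0.992. Column medians were 0.000977, -0.00145, -0.00322 and 0.00333 for Sce2965 replicates 1 to 4, and 0.00464, -0.00616, -0.00276 and 0.00835 for Sce2950 replicates 1 to 4. The precision is limited by the number of arrays.

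Members and lists were chosen with earlier results of these data known. The members named by spot number are those with the highest 2 and lowest 2 means in Sce2965, and features singled out after their values were seen are said to be so. The smallest spreads and the values beside the size threshold are given without spot numbers where they are described.

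From the scanner intensities, background was corrected by normexp (offset 50), ratios were normalized by global loess, spots marked to be ignored were left out, and duplicate spots were averaged. limma 3.58.1 (statmod 1.5.0, R 4.3.3) modelled the 8 arrays jointly, with a term for each hybrid, a common dye term, and 5 residual and 5.5 prior degrees of freedom. The test was two-sided, with Benjamini-Hochberg adjustment over the 6526 features with at least 3 values in both hybrids. The script was tested on simulated data. Alternatives changed background, normalization, filter, dye term, block and arrays. Tables and figures were made with Python 3.11.15, pandas 2.3.3 and matplotlib 3.10.9.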

Additional observations from a re-analysis of the deposited data

Results flagged for a closer look

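Of the 116 groups of 4 arrays (58 members in each hybrid), 4 held 1 array far from the others. Each of these arrays lay further out than Dixon's 95% critical value for 4 values allows. Chance gives about 1 in 20 for unselected replicates. The rule chose the groups on these same values, so that rate does not apply here. The spots below are named after their values were seen. Spots 1133 and 1134 had 3.48 on Sce2965 replicate 3, while the other 3 arrays lay between 0.03 and 0.14, and the marked spot described above was on that array. Spots 12259 and 12260 had -1.07 on Sce2965 replicate 4, with the others between -0.44 and -0.35. Their Sce2965 mean was -0.57 in the deposited table and -0.16 when recomputed from the scanner intensities. Spots 3875 and 3876 had 0.50 on Sce2950 replicate 3, with the others between -0.03 and 0.05. Spots 5373 and 5374 had 0.13 on Sce2950 replicate 3, with the others between -0.09 and -0.05. These values lie on 3 arrays of the later slides, and the part of the slide series was not tested.

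For 4 members, limma's test of the difference between the hybrids on recomputed ratios passed the threshold. The rule used the arrays of both hybrids, so these calls are no independent support. Spots 6163 and 6164 differed by 1.08 on the log2 scale, with means of 1.06 in Sce2965 and -0.02 in Sce2950 (limma adjusted p = 0.0201). Spots 8533 and 8534 differed by 1.02, with 0.98 in Sce2965 and -0.04 in Sce2950 (limma adjusted p = 0.0142). Spots 6919 and 6920 differed by -1.19, with -0.95 in Sce2965 and 0.24 in Sce2950 (limma adjusted p = 0.0129). Spots 10801 and 10802 differed by -0.998, with -0.93 in Sce2965 and 0.07 in Sce2950 (limma adjusted p = 0.0368).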

How the results depend on the processing

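The number of members, 58 in the deposited table, was 106 on scanner ratios with global loess, 101 with a threshold of 0.3, 19 with 0.6, and 43 to 106 with 1 array left out (106 without Sce2965 replicate 3, 89 without Sce2965 replicate 4). Leaving out an array also changes the rule. Without a Sce2965 array the sign condition is easier to meet, and without a Sce2950 array members can only be lost. The number stayed within 1.5 times under print-tip loess (75), with both spots required (42), and in a pair of alternatives chosen after seeing the data, which left out marked spots (56) or took the median of the Sce2965 arrays (51). The 11 members called in Sce2965 became 43 with print-tip loess (1.29% of all features called), 0 with median centring or normexp offset 0 (0 of all features, 49 and 46 members at an unadjusted limma p under 0.05), 4 without background subtraction, with plain subtraction or with scaling between arrays (0.306%, 0.169% and 0.153%), 26 among features above the median brightness (1.78%), 34 with slide series as a random block (1.07%), 49 on the later slides alone (3.77%), and 0 to 11 with 1 array left out. The 4 called differences became 10 with print-tip loess (0.490% of all features), 0 with median centring (0.230%, 33 members at an unadjusted limma p under 0.05), 2 without background subtraction or with plain subtraction (0.322% and 0.291%), 1 with offset 0 or scaling (0.169% and 0.306%), 35 on the later slides alone (1.92%), and 0 to 4 with 1 array left out. The causes were not tested. On the later slides alone, limma had fewer residual degrees of freedom than in the main fit, with only replicates 3 and 4 of each hybrid. Other alternatives run for these counts left them within 1.5 times.

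With the replicate number as a block, limma called 49 members in Sce2965 and 21 differences, beside 3.25% and 0.981% of all features. That fit too left fewer residual degrees of freedom than the main fit. Same-numbered arrays deviated together for replicates 3 and 4 (correlations of 0.663 and 0.655) and not for replicates 1 and 2 (-0.11 and 0.0542). Across the hybrids, replicates 3 and 4 shared slide series and dye orientation, while replicates 1 and 2 differed in both. The correlations therefore cannot tell pairing from slide series and dye, and the numbers were not taken as pairs. The 4 members named by their means reversed under none of the 20 alternatives, with ranges of 0.73 to 1.53 (spots 35 and 36), 0.80 to 1.07 (255 and 256), -1.001 to -0.84 (10801 and 10802) and -0.89 to -0.69 (11753 and 11754). They were chosen for extreme means on the same arrays, so a kept sign is no independent support. Leaving out a Sce2950 array, the dye term or the dimmer features, or adding the replicate block, could not change their Sce2965 estimates. Sce2965 had a term of its own, its arrays were balanced over the dyes, and a filter on features changes no ratio. These settings, counted among the 20, therefore say nothing about a reversal. The limma call was lost under 12 alternatives for spots 255 and 256 and under 5 for spots 10801 and 10802. Spots 35 and 36 and spots 11753 and 11754 were not called as reported (limma adjusted p of 0.182 and 0.0547) and were called under 4 and 7 alternatives. Of the 7 members whose recomputed mean fell under 0.4 in size, 4 were above the 95th brightness percentile and 3 below the median brightness.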
